A study of Mus musculus with 16 samples.

Results

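Long intergenic noncoding RNA (lincRNA) genes are transcribed from their own promoters, at a distance from protein-coding genes. The regions described here are the starts of such genes on the 19 mouse autosomes, taken from the GENCODE vM21 annotation of mm10. A window of 1 kb on either side of the start was kept when that start lay more than 5 kb from every protein-coding start. This rule gave 4587 windows, which are 88.1% of the 5209 autosomal lincRNA genes and part of the 26016 autosomal protein-coding and lincRNA starts. The median distance to the nearest coding start was 80.0 kb.

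Haploid spermatids were profiled by AutoCUT&RUN, an automated method in which a nuclease tethered to an antibody releases the DNA fragments around a chromatin mark. The cells came from 2-month-old males of 2 sibling pairs, each pair 1 wild-type (WT) male and 1 male lacking H2A.B (KO). KO males carried CRISPR/Cas9 mutations in all 3 X-linked genes H2afb1, H2afb2, and H2afb3, from a single founder strain made in B6;SJLF1/J zygotes and backcrossed to C57BL/6J, and WT males were their siblings. Each male was profiled for H3K4me3, H3K27me3, H3K9me3, and, as background, IgG. There are thus 16 libraries, with 2 for each target and genotype. Replicates 1 and 2 are taken as the sibling pairs, though the labels give only the number and a code that differs between them. Pair and any batch behind that code cannot be told apart.

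Distinct autosomal fragments per library ranged from 140181 to 236269 for IgG, from 708411 to 3229214 for H3K4me3, and from 3136799 to 3963850 for H3K9me3. H3K27me3 spanned 3773436 fragments in KO replicate 1 down to 196218 in WT replicate 2. The 3 H2A.B genes were covered by 0 to 10 fragments per library, too few to show the mutations, which delete only short stretches. Of the start windows of spermatid marker genes, 5 of 10 carried H3K4me3 in all 4 libraries, against 2 of 6 for spermatocytes and none of the 6 spermatogonial, 5 Sertoli, 5 Leydig, and 5 blood markers, where 23.7% of all starts did. Levels are given as distinct fragments per 1000000 distinct autosomal fragments of the library (FPM). The H3K4me3 level summed over the 10 spermatid markers was 131 to 211 FPM, that over the 6 spermatocyte markers 57.0 to 70.0, and that over the 5 Leydig markers 0 to 2.17. These sums cover unequal numbers of genes and are not levels per gene. The spermatid markers that did not pass in all 4 libraries were Prm1, Prm2, Tnp1, Tnp2, and Tssk6. Their mean levels ran from 1.66 FPM at Prm1, under the 6.07 of the spermatogonial marker Sohlh1, to 21.0 at Tssk6.

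H3K4me3 marks promoters in use or poised for use. H3K27me3 is laid down by Polycomb repressive complexes, typically at CpG-rich promoters of developmental regulators, and H3K9me3 marks heterochromatin and silenced repeats. In developing male germ cells both H3K4me3 and H3K27me3 are known to sit together at some developmental promoters, and the testis is known for transcribing many lincRNAs found in few other tissues.

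The windows that carried H3K4me3 and those that carried H3K27me3 differed in their median CpG ratio, so 8 starts are shown from 250 bases before to 50 bases after the annotated start. The first 3 carried H3K4me3 in spermatids, the next 4 carried H3K27me3, and the last carried both. They are written 5′ to 3′ on the strand of the gene from the GRCm38 assembly (mm10), with CpG dinucleotides in capitals. In this order they lie at chr12:52602273-52602572 (- strand), chr4:57364243-57364542 (-), chr19:5802623-5802922 (-), chr7:70347647-70347946 (-), chr14:48668458-48668757 (+), chr9:74848213-74848512 (+), chr12:109540751-109541050 (+), and chr15:103101987-103102286 (+).
1700031P21Rik: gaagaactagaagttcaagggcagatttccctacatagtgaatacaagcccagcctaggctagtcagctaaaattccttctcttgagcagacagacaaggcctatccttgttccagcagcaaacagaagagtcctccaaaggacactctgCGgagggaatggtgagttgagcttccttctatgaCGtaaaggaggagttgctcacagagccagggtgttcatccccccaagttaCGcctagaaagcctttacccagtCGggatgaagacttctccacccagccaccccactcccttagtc
1700042G15Rik: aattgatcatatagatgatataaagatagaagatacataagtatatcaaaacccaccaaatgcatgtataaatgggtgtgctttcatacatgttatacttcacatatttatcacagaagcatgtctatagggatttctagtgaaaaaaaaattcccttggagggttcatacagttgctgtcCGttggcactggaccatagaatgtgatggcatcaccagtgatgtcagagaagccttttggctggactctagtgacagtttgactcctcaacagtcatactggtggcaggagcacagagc
Malat1: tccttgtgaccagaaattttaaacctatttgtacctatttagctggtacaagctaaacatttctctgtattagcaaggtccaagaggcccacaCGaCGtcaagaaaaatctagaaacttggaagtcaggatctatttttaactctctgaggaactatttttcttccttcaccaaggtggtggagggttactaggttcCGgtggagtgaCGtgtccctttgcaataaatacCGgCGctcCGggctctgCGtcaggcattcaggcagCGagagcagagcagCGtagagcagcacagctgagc
Gm44948: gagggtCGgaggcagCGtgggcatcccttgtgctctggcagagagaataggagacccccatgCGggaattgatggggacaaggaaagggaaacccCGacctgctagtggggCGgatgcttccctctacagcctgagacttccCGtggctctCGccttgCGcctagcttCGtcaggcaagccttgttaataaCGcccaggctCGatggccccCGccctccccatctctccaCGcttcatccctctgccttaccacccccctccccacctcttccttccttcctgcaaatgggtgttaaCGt
Otx2os1: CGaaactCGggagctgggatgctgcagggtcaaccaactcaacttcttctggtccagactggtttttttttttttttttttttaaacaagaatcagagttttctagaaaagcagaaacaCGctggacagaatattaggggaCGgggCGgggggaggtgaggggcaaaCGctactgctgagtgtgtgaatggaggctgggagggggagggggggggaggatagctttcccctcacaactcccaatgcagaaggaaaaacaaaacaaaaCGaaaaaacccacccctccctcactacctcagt
Gm20649: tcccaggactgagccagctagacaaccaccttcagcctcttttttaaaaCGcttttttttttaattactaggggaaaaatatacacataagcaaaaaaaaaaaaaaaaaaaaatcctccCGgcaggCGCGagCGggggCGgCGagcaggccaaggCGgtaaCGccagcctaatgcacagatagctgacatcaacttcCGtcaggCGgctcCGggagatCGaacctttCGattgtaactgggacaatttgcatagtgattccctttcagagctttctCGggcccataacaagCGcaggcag
Meg3: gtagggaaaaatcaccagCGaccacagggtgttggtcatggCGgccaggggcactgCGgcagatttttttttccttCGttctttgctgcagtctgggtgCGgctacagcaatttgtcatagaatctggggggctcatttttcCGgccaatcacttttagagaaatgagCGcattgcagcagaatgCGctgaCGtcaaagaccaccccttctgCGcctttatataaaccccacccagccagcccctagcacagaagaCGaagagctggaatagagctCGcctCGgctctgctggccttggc
Gm10830: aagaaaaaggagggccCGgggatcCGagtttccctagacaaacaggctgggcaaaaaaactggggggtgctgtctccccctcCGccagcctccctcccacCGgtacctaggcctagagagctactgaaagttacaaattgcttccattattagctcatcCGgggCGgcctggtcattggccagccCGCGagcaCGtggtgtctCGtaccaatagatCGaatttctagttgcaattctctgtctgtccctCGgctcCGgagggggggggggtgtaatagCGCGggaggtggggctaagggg
These 300 bases hold 4 CpG dinucleotides in 1700031P21Rik, 1 in 1700042G15Rik, and 10 in Malat1. They hold 14 in Gm44948, 7 in Otx2os1, 16 in Gm20649, 13 in Meg3, and 15 in Gm10830.

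In spermatids, 441 of the 4587 lincRNA windows carried H3K4me3 and 184 carried H3K27me3, while only 16 carried H3K9me3. A window was called marked in a library when its distinct fragments exceeded the 99th percentile of 2-kb tiles far from any start, and these counts require all 4 libraries of the target. The H3K4me3 share was 9.61% of lincRNA windows, 26.7% of coding windows, and 28.1% of the 622 lincRNA windows within 5 kb of a coding start. Over all starts H3K4me3 marked 23.7%, and over tiles it marked 0.451%.

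H3K27me3 marked 4.01% of lincRNA windows, 12.7% of coding windows, and 15.6% of lincRNA windows near coding starts, with 11.2% over all starts and 0.415% of tiles. H3K9me3 marked 0.349% of lincRNA windows, no more than the 0.388% of all starts or the 0.487% of tiles. IgG passed the same limit in 7 windows (0.153%), beside 0.0961% of all starts. The remaining 3962 windows, 86.4%, did not pass in all 4 libraries for any of the 3 marks. Some of them passed in fewer libraries, so a mark need not be absent there.

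**Figure D1:**
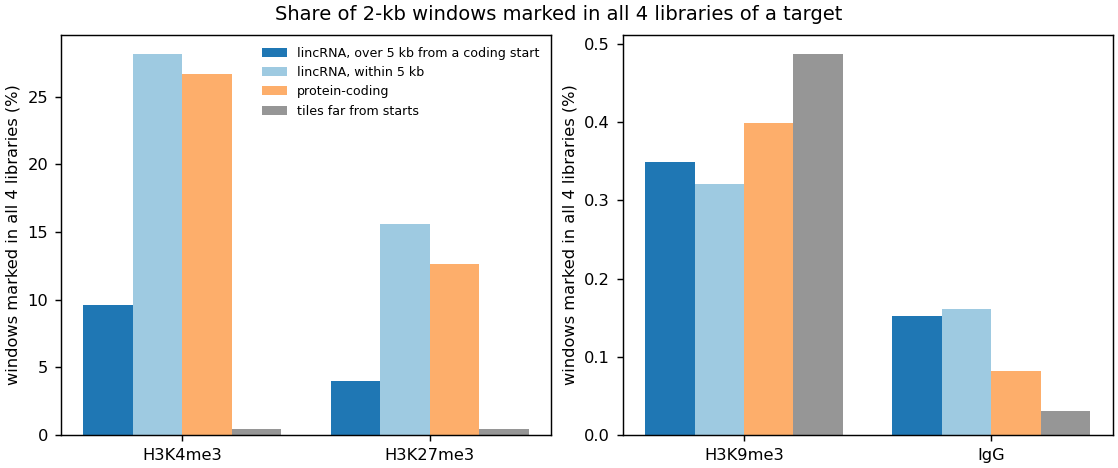
Share of 2-kb windows (y axis, %) marked in all 4 libraries of each target, for lincRNA starts over 5 kb from a coding start, lincRNA starts within 5 kb, protein-coding starts, and tiles far from starts. The lincRNA windows are at 9.61% for H3K4me3 and 4.01% for H3K27me3, under coding starts and over tiles, and at 0.349% for H3K9me3.

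Summed over the 4587 windows, H3K4me3 was enriched 7.51-fold over tiles, a mean log2 enrichment of 2.91 ± 0.18 (SD, n = 4 libraries), and H3K27me3 was enriched 5.53-fold, at 2.47 ± 0.20. Both stayed under coding starts, by 1.17 ± 0.05 and 1.12 ± 0.14 on the log2 scale as the mean of 4 libraries, and lincRNA windows were lower in 4 of 4 libraries for each. Relative to IgG of the same animals, H3K4me3 was higher by 2.67 ± 0.27 and H3K27me3 by 2.23 ± 0.11. H3K9me3 was at -0.24 ± 0.20 over tiles and IgG at 0.23 ± 0.24. An exact two-sided sign-flip test over 4 animals cannot go under p = 0.13, the value of each H3K4me3 and H3K27me3 comparison, and gave p = 0.25 for H3K9me3 over tiles. A few windows with many IgG fragments weigh on these sums, and without windows of 10 or more IgG fragments the enrichments were 2.87, 2.04, -0.47, and -0.30. A lower level in a population of cells may be fewer cells with the mark or less mark per cell, which cannot be told apart.

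The H3K4me3-only windows, 428 in all, had a median mean level of 19.3 FPM, from 10.3 to 130. Their mean was 25.3 and 20.1 in the KO libraries and 21.8 and 19.6 in the WT libraries, while H3K27me3 in the same windows stayed between 0.993 and 1.36. IgG in these windows averaged 1.07 to 2.94 FPM, against 0.362 to 0.587 in H3K27me3-only windows. Windows of 10 or more IgG fragments were kept in these means. One of them, the H3K4me3-only window of 4930547H16Rik, held 78 and 16 IgG fragments in KO and 95 and 11 in WT, so the range is not a background shared by all H3K4me3-only windows. In marked windows H3K4me3 was highest within 75 bp upstream of the start in all 4 libraries.

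Among windows with under 10 IgG fragments over the 4 libraries, the highest H3K4me3 level was at Gm13166, a predicted gene 95 kb from Zfp600 on chromosome 4, with 163 and 117 FPM in KO and 109 and 133 in WT. Gm13236, in the same zinc finger gene region, had 159 and 111 in KO and 116 and 131 in WT. The genotypes overlapped at both. Left out by that limit were AY036118 and Gm42418, with higher means of 220 and 143 FPM. Gm13166 shares 89.5% of its 25-base words with another start window and Gm13236 95.1%, so the 25-base reads could not be assigned to 1 copy with certainty.

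Such duplicated sequence was common among the highest windows. Gm48105, Gm10339, and 1700110I01Rik, on chromosome 14, share 90.6% to 94.2% of their words with other start windows, and Gm43492 on chromosome 5 shares 99.3%. Gm26763, at 42.6%, had 51.3 and 46.1 FPM in KO and 79.1 and 48.9 in WT. Gm48051 on chromosome 13 shares 18.1% and had 48.9 and 47.1 in KO and 35.3 and 40.6 in WT. Over all members, 141 windows (3.07%) share 50% or more of their words, and 25 of these carried H3K4me3.

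**Figure D2:**
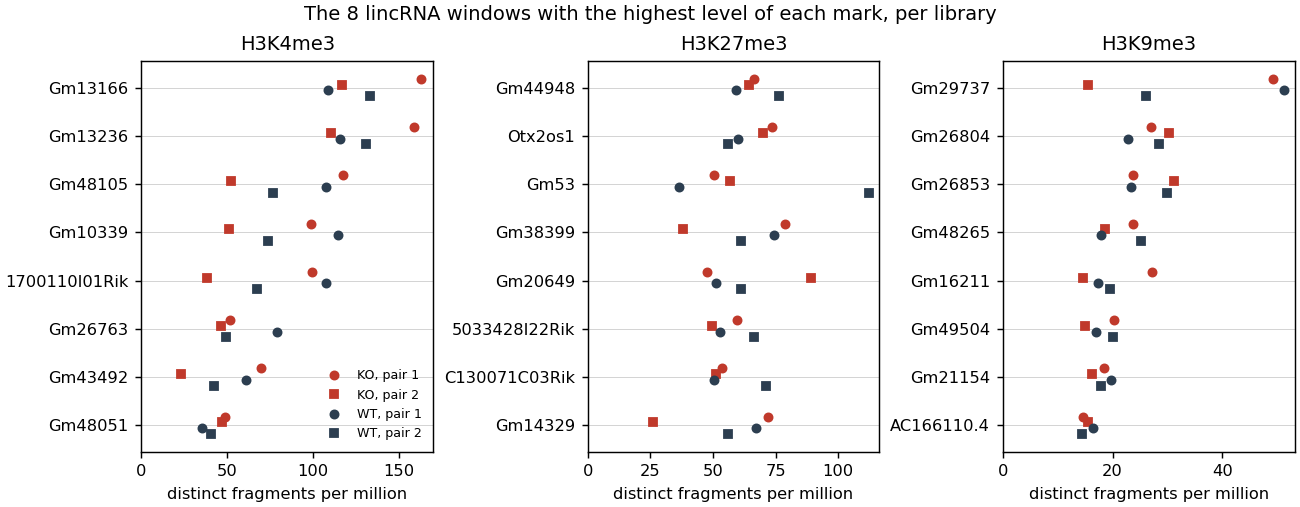
FPM (x axis) in each of the 4 libraries at the 8 lincRNA windows with the highest mean of H3K4me3, H3K27me3, and H3K9me3, without overlapping windows and those of 10 or more IgG fragments. The latter leaves out Gm42418, AY036118, and Gm26917, whose means reached 1613 FPM for H3K27me3 and 174 for H3K9me3. Circles are pair 1 and squares pair 2, red is KO and dark blue is WT. Gm13166 spans 109 to 163 for H3K4me3, and Gm44948 spans 59.4 to 76.4 for H3K27me3.

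Windows of testis-derived transcripts carried H3K4me3 more often than windows with other kinds of names. Some RIKEN gene names carry the code of a testis cDNA library, and 164 of the 509 windows so named (32.2%) carried H3K4me3, where 9.61% of all members, 23.7% of all starts, and 26.7% of coding starts did. Among other RIKEN clones the share was 4.37% (17 of 389), and among predicted genes it was 7.22% (231 of 3201). The H3K4me3-marked testis clones had a median level of 20.1 FPM, from 10.6 to 83.0, and the 341 unmarked ones 6.34. All testis clones together, without windows of 10 or more IgG fragments, averaged 13.2 and 11.5 FPM in KO and 11.1 and 10.9 in WT.

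The 4 testis clones named next had the highest levels among those with H3K4me3 only that share under 5% of their words. Clones with 10 or more IgG fragments and clones on chromosome 18 were left out of this choice. They were picked after these values were seen. 1700031P21Rik had 34.5 and 39.9 FPM in KO and 28.2 and 38.2 in WT. 4930484H19Rik had 34.5 and 36.9 in KO and 28.2 and 31.3 in WT. 1700042G15Rik had 40.9 and 34.1 in KO and 22.6 and 32.8 in WT, and 4930568G15Rik had 32.1 and 41.8 in KO and 22.6 and 31.8 in WT. At 1700031P21Rik the genotypes overlapped, and at the other 3 both KO libraries were above both WT libraries. Coding starts summed together had the same order, with 10.3 and 8.87 FPM per window in KO and 8.36 and 8.34 in WT.

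H3K27me3 was least frequent among testis clones. It marked 4 testis clones (0.786%), 39 other RIKEN clones (10%), and 13 of the 89 genes with other names (14.6%). Predicted genes were at 3.53% and accession-type names at 3.76%, beside 4.01% of all members and 11.2% of all starts.

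Both marks were most frequent at the highest CpG content, while CpG-poor windows carried H3K4me3 more often than H3K27me3. Among windows with an observed to expected CpG ratio of 0.6 or more, 29.5% carried H3K4me3 and 30.8% H3K27me3. From 0.4 to 0.6 the shares were 18.6% and 28.2%, and from 0.2 to 0.4 they were 8.05% and 3.69%. Under 0.2 they were 9.24% for H3K4me3 (198 windows) and 0.187% for H3K27me3 (4 windows). The median ratio was 0.218 in H3K4me3-only lincRNA windows and 0.411 in H3K27me3-only windows. In windows that passed in all 4 libraries for no mark it was 0.203, close to that of H3K4me3-only windows. Coding windows with H3K4me3 only had a median of 0.638, and those with H3K27me3 only 0.559.

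In the 300 bases around the start, the median number of CpG dinucleotides was 4 in H3K4me3-only windows, 9 in H3K27me3-only windows, 3 in unmarked windows, and 12 at coding starts. The letters GGGCGG, on either strand, occurred in 16.4% of H3K4me3-only, 30.1% of H3K27me3-only, and 6.52% of unmarked lincRNA starts, and in 37.3% of all starts. CCAAT on either strand occurred in 38.8%, 33.5%, and 37.9% of these classes and in 38.4% of all starts. TATAAA on either strand occurred in 15.7%, 8.67%, and 17.9%, and in 13.5% of all starts. These are descriptions of letters and show no binding.

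**Figure D3:**
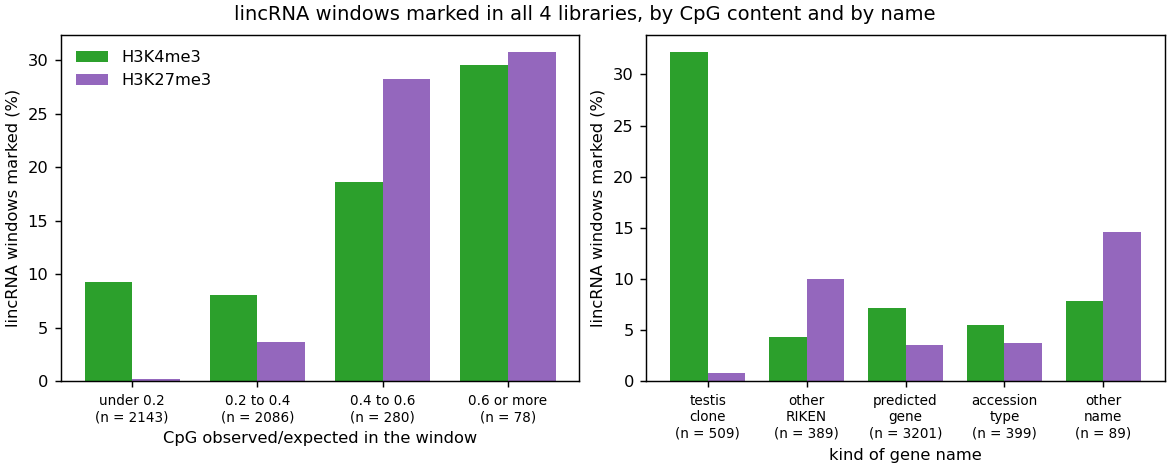
Share of lincRNA windows marked in all 4 libraries (y axis, %) by the observed to expected CpG ratio of the window (left) and by the kind of gene name (right), for H3K4me3 in green and H3K27me3 in purple, with the number of windows under each pair of bars. H3K27me3 rises from 0.187% to 30.8% with CpG content, and H3K4me3 reaches 32.2% among testis clones.

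The 173 H3K27me3-only windows had a median level of 28.7 FPM, from 12.7 to 66.6, and their H3K4me3 averaged 1.54 to 1.69. Gm44948, which lies 19 kb from the orphan receptor gene Nr2f2, had 66.3 and 64.2 FPM in KO and 59.4 and 76.4 in WT. Otx2os1, 5.11 kb from the head-patterning gene Otx2, had 73.7 and 70.1 in KO and 60.1 and 56.1 in WT, so both KO libraries were above both WT libraries there.

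Gm53 lies 20.4 kb from the homeobox gene Hoxb9 and had 50.6 and 56.9 FPM in KO and 36.3 and 112 in WT. Gm20649, 13.5 kb from Onecut1, a transcription factor gene, had 47.7 and 89.0 in KO and 51.3 and 61.2 in WT. 5033428I22Rik, 11.1 kb from the heart and limb regulator Hand2, had 59.6 and 49.6 in KO and 52.7 and 66.3 in WT. The genotypes overlapped at these 3 windows. Gm38399, C130071C03Rik, and Gm14329, whose nearest coding starts are Csrp1, Mef2c, and Emp1, ranged from 26.3 to 78.7. None of these 8 windows shares over 10% of its 25-base words, the highest being 9.06%.

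The nearest coding start carried H3K27me3 for 63 of the 184 marked lincRNA windows (34.2%) and for 24.3% of the unmarked ones. At 5 to 20 kb the shares were 43.6% (17 of 39) and 18.8% (135 of 717), and over 100 kb they were 28.1% and 27.5%. For H3K4me3 the nearest coding start was marked in 24.3% of marked and 20% of unmarked lincRNA windows. Over all coding starts the shares were 12.7% for H3K27me3 and 26.7% for H3K4me3. The neighbours of unmarked windows were thus above the coding share for H3K27me3, and those of both groups under it for H3K4me3.

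Marked windows were chosen for fragments within 1 kb of the start, so a level above the flanks is fixed by that choice, and only the place of the maximum is described. For H3K27me3 it lay between 75 bp upstream and 925 bp downstream depending on the library.

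Both H3K4me3 and H3K27me3 marked 11 windows, 2.49% of the H3K4me3 windows and 5.98% of the H3K27me3 windows, and 8 of them carried no H3K9me3. Among coding starts both marked 53 windows, 0.956% of the H3K4me3 and 2.01% of the H3K27me3 windows. As a share of all windows, these 2 marks without H3K9me3 were no more frequent at lincRNA starts. They were at 0.174% of lincRNA windows (8) and 0.197% of coding windows (41). Gm10830 and Gm28876, whose windows overlap on chromosome 15 at 64.9 kb from Smug1, had the highest H3K4me3 levels of the 6 named here, with H3K27me3 under that of Gm35611 and Gm43782. Gm10830 had H3K4me3 of 50.5 and 35.6 FPM in KO and 36.7 and 32.3 in WT, and H3K27me3 of 18.8 and 19 in KO and 23.8 and 45.9 in WT. Gm43782 had H3K4me3 of 20.1 and 19.2 in KO and 16.9 and 11.3 in WT, with H3K27me3 of 42.1 and 29.2 in KO and 32.5 and 35.7 in WT. Gm35611, Gm34078, and Gm45625 ranged from 8.98 to 24.0 for H3K4me3 and from 7.30 to 51.0 for H3K27me3. In a mixture of cells, 2 marks in 1 window need not be on the same chromosome copies.

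H3K9me3 marked lincRNA windows (0.349%) at a share near that of all starts (0.388%) and of the tiles that set the limit (0.487%). Its 11 H3K9me3-only windows had a median repeat share of 39.6%, against 21.4% in unmarked windows, and levels of 12.1 to 35.5 FPM. Gm29737 on chromosome 12 is 69.6% repeat and had 49.2 and 15.6 FPM in KO and 51.3 and 26.1 in WT, so replicate 1 was above replicate 2 in both genotypes. Gm48265, 10.3 kb from the chemokine gene Ccl28, had 23.7 and 18.5 in KO and 17.8 and 25.2 in WT.

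Gm26804 and Gm26853 on chromosome 8 carried H3K9me3 and H3K4me3 together, at 22.9 to 31.1 and 11.5 to 28.9 FPM, and share 84.0% and 83.2% of their words with other start windows. Gm16211, Gm49504, Gm21154, and AC166110.4 lie between 14.3 and 27.2 for H3K9me3. Of these, AC166110.4 is 11.7% repeat, shares only 0.962% of its words, and had 14.6 and 15.6 in KO and 16.5 and 14.3 in WT.

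Of 40 well-known long noncoding RNAs, 14 are members, and 2 of them carried H3K4me3, where 9.61% of all members and 23.7% of all starts did. Malat1, an abundant nuclear RNA, had 23.3 and 25.1 FPM in KO and 14.1 and 21.5 in WT. Neat1, which builds nuclear paraspeckles, had 18.5 and 31.9 in KO and 21.2 and 24.5 in WT. Both KO libraries were above both WT libraries at Malat1 but not at Neat1, and H3K27me3 was 0 in all 4 libraries at Malat1.

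H3K27me3 marked 4 of the 14, which are Meg3, Lncpint, Trp53cor1, and Bvht, where 4.01% of all members and 11.2% of all starts were marked. The imprinted gene Meg3 had 29.9 and 24.8 FPM in KO and 30.7 and 15.3 in WT. Lncpint, a target of p53, had 57.5 and 29.2 in KO and 49.2 and 30.6 in WT. H19, Hotair, Pvt1, and Miat were among those not marked in all 4 libraries by either. Hotair had H3K27me3 of 11.1 and 36.5 in KO and 8.73 and 25.5 in WT and missed the limit only in WT replicate 1, with 25 fragments against 31. Miat and Lncenc1 missed the H3K27me3 limit only in WT replicate 2, each with 1 fragment where more than 2 were needed. H19 had H3K27me3 of 8.75 and 7.30 in KO and 11.2 and 5.10 in WT.

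Among 18 Platr genes, named for transcripts of pluripotent cells, none carried H3K4me3 and Platr19 carried H3K27me3, with 54.1 and 16.1 FPM in KO and 52.4 and 35.7 in WT. Platr30 missed the H3K27me3 limit only in WT replicate 2, with 2 fragments where more than 2 were needed. None of 3 Snhg genes, hosts of small nucleolar RNAs, was marked by H3K4me3 or H3K27me3 in all 4 libraries. Snhg6 missed the H3K4me3 limit only in WT replicate 1, with 8 fragments where more than 8 were needed. The median H3K4me3 level of the 3 was 8.84 FPM, against 0.355 over all members. The counts of marked Platr, Snhg, and microRNA host genes stand beside 9.61% of all members for H3K4me3 and 4.01% for H3K27me3. Of 6 microRNA host genes, Mir9-3hg and Mir124a-1hg, hosts of microRNAs known from neurons, carried H3K27me3. Mir9-3hg missed the H3K4me3 limit only in WT replicate 1, with 4 fragments where more than 8 were needed. Mir17hg missed the H3K4me3 limit only in KO replicate 2, with 23 fragments where more than 26 were needed. Mir124-2hg, in the same list, missed the H3K27me3 limit only in WT replicate 2, with 2 fragments where more than 2 were needed. Mir124a-1hg had 41.3 and 39.4 in KO and 45.1 and 66.3 in WT.

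The comparison of KO with WT asked whether loss of H2A.B went with a different level of each mark. Summed over all 4587 windows, H3K4me3 was 4.48 and 3.86 FPM per window in KO and 3.9 and 3.66 in WT, a log2 difference (KO minus WT) of 0.14 with an SD between replicates of 0.12. The libraries of the genotypes overlapped, and the exact two-sided permutation test gave p = 0.667. Within the sibling pairs the difference was 0.20 and 0.07. H3K27me3 was 3.38 and 2.81 in KO and 3.31 and 3.20 in WT, a difference of -0.08 (SD 0.13, exact permutation p = 1), or 0.03 and -0.19 within pairs. H3K9me3 was 0.562 and 0.625 in KO and 0.495 and 0.576 in WT, a difference of 0.15 (SD 0.13, exact permutation p = 0.667), or 0.18 and 0.12 within pairs. IgG differed by -0.24 (SD 0.15, exact permutation p = 0.33), or -0.28 and -0.21 within pairs. Without the 16 windows of 10 or more IgG fragments the differences were 0.14 for H3K4me3, -0.14 for H3K27me3, 0.02 for H3K9me3, and 0.06 for IgG. With 2 libraries against 2, this exact test cannot go under p = 0.33.

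For the 3 marks, more windows passed the limit in both KO than in both WT libraries, while IgG went the other way, with 7 in KO (all starts 0.161%) and 10 in WT (all starts 0.192%). For H3K4me3 these were 644 in KO (all starts 31.9%) and 481 in WT (all starts 24.6%), with 441 in common, which is 68.5% of the KO and 91.7% of the WT windows. For H3K27me3 they were 254 (all starts 15.1%) and 206 (all starts 12%), with 184 in common, and for H3K9me3 19 (all starts 0.55%) and 17 (all starts 0.457%), with 16 in common. The shallowest H3K4me3 library was WT replicate 1 and the shallowest H3K27me3 library was WT replicate 2, where 3 fragments were enough to pass. Thinned to the smallest library, H3K4me3 marked 566 windows in KO and 437 in WT, and H3K27me3 marked 138 in KO and 194 in WT, so the order of the genotypes turned for H3K27me3. The thinned counts were taken for lincRNA windows only, and whether the order also turned over all starts was not tested. The IgG counts moved with the settings, from 0 to 38 in KO and from 1 to 53 in WT.

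Per window, limma found no lincRNA start with a different H3K4me3 or H3K27me3 coverage. None of 1534 lincRNA windows tested for H3K4me3 had a Benjamini-Hochberg adjusted p under 0.05 (0% of 13868 starts), and 55 had an unadjusted p under 0.05, beside 452 of the 13868 starts. Of the 55, 48 were higher in KO, but with median-of-ratios size factors 22 of 40 were. For H3K27me3 none of 961 passed (0% of 7711 starts), and 5 had an unadjusted p under 0.05, beside 26 of the 7711 starts. Limma-trend also gave 0 for both. Without WT replicate 2, 9 lincRNA windows passed for H3K4me3, 2 of them higher in KO, beside 23 of all 13868 starts, 6 of them higher in KO.

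The H3K27me3 fit had little power to call a change. On simulated data, 200 windows were changed 4-fold, drawn only from those with 40 or more fragments, while windows from 10 fragments were tested. The H3K27me3 fit found 70 with counting noise alone among 7793 windows tested. It found 0 with an added spread between libraries (coefficient of variation 0.3) among 7753. The H3K4me3 fit found 181 and 56 under the same conditions, among 13915 and 13862 windows.

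For H3K9me3, 3 of 600 lincRNA windows tested were higher in KO, beside 0.0766% of 3917 starts. All 3, Gm26917, Gm42418, and AY036118, lie together at chr17:39842013-39849034, a stretch of mm10 known for collecting reads of ribosomal RNA genes, and the windows of the last 2 overlap. Gm26917 had 107 and 78.1 FPM in KO and 38.5 and 52.9 in WT, a log2 difference of 1.03 (SE 0.21, limma adjusted p = 0.00247). AY036118 differed by 0.92 (SE 0.20, limma adjusted p = 0.0103) and Gm42418 by 0.86 (SE 0.20, limma adjusted p = 0.0306). Both KO libraries were above both WT libraries at each.

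The calls and the size of the differences depend on the processing. With every deposited fragment counted the log2 differences were 0.67, 0.62, and 0.56 for Gm26917, AY036118, and Gm42418, and leaving out 1 library moved them to between 0.67 and 1.25. With the sibling pair as a block the log2 differences were 1.03, 0.93, and 0.87 in that order, and all 3 had an adjusted p of 0.769 in limma. The same number was called with a fixed prior count and with re-estimated weights, and 0 under limma-trend, other filters, other size factors, with every deposited fragment counted, and without any 1 of the 4 libraries. The same windows held 10, 70, and 44 IgG fragments for Gm26917, Gm42418, and AY036118, and H3K27me3 means of 587, 1613, and 1291 FPM. The part of repeat reads in these differences was not tested.

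In the H3K4me3 libraries, small fragments took a larger share of lincRNA windows in both KO males than in both WT males. The log2 ratio of small (at most 120 bp) to large (at least 150 bp) H3K4me3 fragments was -0.77 and -0.75 in KO and -1.39 and -1.65 in WT, a difference of 0.76 (SD 0.13, exact permutation p = 0.33, the smallest possible). Small fragments were 37.0% and 37.4% of the 2 classes in KO and 27.7% and 24.2% in WT.

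Differences of like size were measured away from lincRNA starts. Coding starts here leave out windows of 10 or more IgG fragments, while lincRNA starts keep them. In H3K4me3 libraries the KO minus WT difference was 0.81 at coding starts and 0.90 in tiles. The lincRNA difference less that in tiles was -0.14, or -0.12 without such lincRNA windows. In H3K27me3 the KO minus WT difference was 0.76 at lincRNA starts (SD 0.76, exact permutation p = 0.667), 0.81 at coding starts, and 0.69 in tiles. In H3K9me3 it was 0.46 (SD 0.91, exact permutation p = 0.667), 0.50, and 0.59. Leaving out 1 library moved the H3K27me3 difference to between 0.15 and 1.37 and the H3K9me3 difference to between -0.20 and 1.11, which turns its direction. Within sibling pairs the H3K27me3 difference was 0.60 and 0.91 and the H3K9me3 difference 0.45 and 0.46, while replicates of 1 genotype differed by more than 0.9.

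IgG at lincRNA windows went the other way, at -0.12 (SD 0.50, exact permutation p = 1), but it was 0.42 without the 16 windows of 10 or more IgG fragments, and 0.54 in tiles. Fragments with repeated coordinates made up 42.6% to 84.4% of the libraries, and the part of library preparation in the fragment sizes was not tested.

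**Figure D4:**
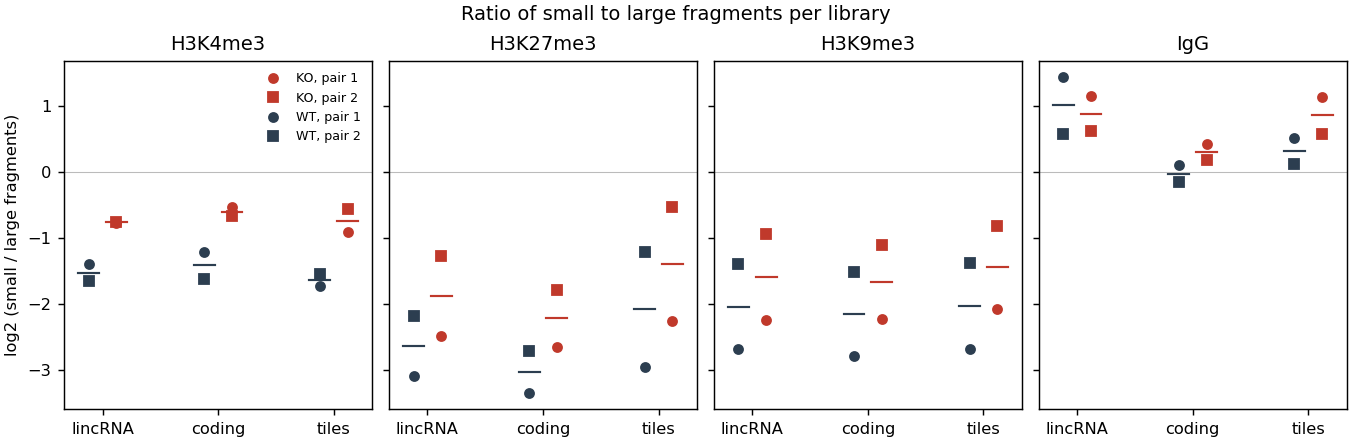
Log2 ratio of small (at most 120 bp) to large (at least 150 bp) fragments (y axis) in each library at lincRNA starts, coding starts, and tiles, for the 4 targets. Coding starts leave out windows of 10 or more IgG fragments, while lincRNA starts keep them. Red is KO and dark blue WT, circles are pair 1, squares pair 2, and short lines are means. For H3K4me3 both KO libraries lie above both WT libraries at lincRNA starts, coding starts, and tiles.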

How the data were processed

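Spermatid libraries were aligned to mm10 with Bowtie2, and the deposited values are other than counts: the authors deposited, per library, the chromosome, start, end, and length of each mapped fragment. The methods state that duplicates were removed, yet identical coordinates remain, and each was counted once per library at its midpoint. Levels are distinct fragments per 1000000 distinct autosomal fragments (FPM). KO and WT were compared per start window with limma 3.58.1 in R 4.3.3 (voom weights, prior count 0.5 scaled to library size, windows with 10 or more fragments, Benjamini-Hochberg adjustment), and summed values with exact permutation tests. After the first calls were seen, weights re-estimated on the scaled values were compared with these on simulated data. For H3K27me3 with added spread they found 123 of 200 changes against 0, but 29 of their 152 calls were false against 0, and for H3K9me3 both made the same number of false calls. They were kept as an alternative only. The members and gene lists were chosen with earlier results of these data known. Named per mark were the 8 windows with the highest mean, leaving out overlapping windows and those with 10 or more IgG fragments, the 6 highest with both H3K4me3 and H3K27me3, called windows, and members of the lists. Replicate numbers were taken as the sibling pairs of the methods, which the labels do not state. Deviations of same-numbered libraries correlated at 0.239, 0.154, and 0.180 for H3K4me3, H3K27me3, and H3K9me3, which cannot tell a pair from a batch. Python 3.11.15, NumPy 2.4.6, pandas 2.3.3, and matplotlib 3.10.9 were used.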

Additional observations from a re-analysis of the deposited data

How the results depend on the processing

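With 2 libraries per group, exact p-values reflect only the spread between these animals. Limma p-values also draw on a spread shared over all windows tested, so they do not measure the spread between animals at a single window. The shallow IgG and H3K27me3 libraries limit what single windows can show. The exact tests of summed level and fragment size cannot pass 0.05 at this size, so only their directions can change. KO minus WT log2 levels turned for H3K4me3 scaled to coding windows (-0.055), and for H3K27me3 (0.042) and H3K9me3 (-0.098) with every deposited fragment counted. They also turned for H3K9me3 as a median over members (-0.017), and for IgG without windows of 10 or more IgG fragments (0.057). The median H3K9me3 window held 0 fragments in replicate 1 and 1 in replicate 2 of both genotypes, so that value depends on library size only. The median IgG window held 0 in every library, which fixes its difference at 0. Leaving out 1 library gave 0.030 to 0.25 for H3K4me3, -0.21 to 0.053 for H3K27me3, and 0.042 to 0.26 for H3K9me3. IgG over tiles was -0.30 without windows of 10 or more IgG fragments.

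At the 95th percentile of tiles, H3K4me3 marked 1293 windows in KO and 1125 in WT, H3K27me3 marked 451 and 337, H3K9me3 marked 85 and 80, and IgG marked 12 in KO. Under a stricter percentile, exceeded by only 1 tile in 1000, they numbered 67 and 40, 27 and 16, 4 and 4, and 4 and 5 for IgG. Thinning left 138 H3K27me3 windows in KO. IgG windows numbered 13 in KO with 2 kb either side and 3 in WT with every deposited fragment counted, and 0 and 1 without windows of 10 or more IgG fragments. Requiring only 1 library gave 570 to 743 in WT for H3K4me3, 236 to 340 for H3K27me3, and 19 to 31 for H3K9me3, and 17 to 38 in KO and 48 to 53 in WT for IgG. Counts under these other settings were taken for lincRNA windows only, not over all starts.

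The ratio of small to large fragments less that in tiles turned to -0.14 (H3K4me3) and -0.13 (H3K9me3). Without windows of 10 or more IgG fragments these were -0.12 and -0.02. The IgG ratio turned to 0.49 with every deposited fragment counted, 0.23 with 2 kb either side, and 0.42 without windows of 10 or more IgG fragments. Leaving out 1 library gave 0.15 to 1.37 for H3K27me3, -0.20 to 1.11 for H3K9me3, and -0.55 to 0.31 for IgG. Of the H3K9me3 calls, 0 of 3 remained under limma-trend, filters of 40 or of 1 fragments, median-of-ratios size factors, every deposited fragment counted, the replicate block, or leaving out any 1 library, and 3 were called with a fixed prior count and with re-estimated weights. H3K4me3 calls ranged from 0 to 9 when 1 library was left out, with 9 without WT replicate 2. The replicate block changed no other call. It cannot change a level difference in 2 complete pairs, such as the 0.14 of H3K4me3. Leaving out windows of 10 or more IgG fragments or of shared words, and re-estimating the weights, were chosen after the data were seen. The causes of these changes were not tested.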

Other observations

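IgG fragments piled up in a few lincRNA windows, as they did at some coding starts. Among the 20807 coding starts, 57 held 10 or more IgG fragments over the 4 libraries, and 12 held over 1000. Of 16 windows with 10 or more IgG fragments over the 4 libraries, Gm48237 held 85 and 27 in KO and 113 and 66 in WT, and 4930547H16Rik held 78 and 16 in KO and 95 and 11 in WT. At 4930547H16Rik the mean H3K4me3 level was 37.3 FPM, and at Gm48237 it was 28.7 with H3K27me3 at 28.9. B230214G05Rik and 4930445N06Rik, whose windows overlap on chromosome 15, each held 13, of which 12 came from KO replicate 1. These values were not compared further.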
